A study of Mus musculus with 25 samples.

Results

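The comparison set colon of mice labelled Card9-/- against colon of wild type mice at day 12 of a dextran sulfate sodium (DSS) colitis experiment, after 5 days of recovery. The arrays were chosen by their titles, 5 of each genotype, and are 10 of the 25 arrays of the series. The mice were female, 8 weeks old and on the C57BL/6j background, and all 10 had drunk 2% (w/v) DSS for 7 days and then plain water for 5 days. Card9-/- mice lack the gene by their label. The labels do not state how the deletion was made, which part it removed, whether the mice were littermates or at what hour the colons were taken. Control mice taken before DSS (day 0, 3 per genotype) and mice at day 7 of DSS (5 wild type, 4 labelled Card9-/-) served as background. By its title the series asks how CARD9 alters colitis through microbial tryptophan products that act on the aryl hydrocarbon receptor (AhR).

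CARD9 is an adaptor protein of myeloid cells. Lectin receptors such as Dectin-1 sense fungal cell walls and signal through the kinase Syk to CARD9, which assembles with BCL10 and MALT1 and activates NF-κB. DSS strips the colon epithelium, and after its withdrawal crypt cells divide to close the wounds while the inflammation subsides. Interferons, released when cells sense microbial nucleic acids, switch on a large set of antiviral genes in the epithelium and in immune cells. The circadian clock is a transcription loop in which ARNTL (BMAL1) and CLOCK drive the PER, CRY, REV-ERB and PAR bZIP genes, which peak and fall with the time of day.

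Values are log2 of each probe's processed signal minus the log2 of the 75th percentile of its array, so 0 is the signal at that percentile. On the 10 arrays 46.5 to 67.1% of probes were well above background and the 75th percentile signal lay between 196 and 661. Wild type replicate 5 stood apart, with 67.1% of probes above background against 46.5 to 54.9% on the others, and a median correlation of 0.955 with the other day 12 arrays against 0.968 to 0.979. The mean of 17 pancreatic acinar genes, which encode digestive enzymes and mark admixed pancreas, was 10.6 above the wild type day 12 mean in Card9-/- replicate 1 and 5.30 in wild type replicate 5, against -2.61 to 0.08 on the other 8 arrays. On these 2 arrays 17 of the 17 genes were well above background, but so were 16 on wild type replicate 4 and on Card9-/- replicate 2, against 6 to 9 on the other 6, so acinar RNA was not confined to 2 arrays. In Card9-/- replicate 1 the mean of 7 red blood cell genes was 3.06 above the wild type mean. The 10 arrays lay on 4 slides, each of which held both genotypes. Their number limits the precision. In whole tissue, fewer cells of a type and less RNA per cell cannot be told apart.

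Card9 was read by a single 60-base probe at chr2:26208462-26208521 (mm9, minus strand), which the array design places in the spliced Card9 transcript from base 1373. Its sequence is shown because it is the check of the genotype labels.
Card9 probe: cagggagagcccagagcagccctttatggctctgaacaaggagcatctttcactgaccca
On wild type replicates 1 to 5 the log2 level was -6.40, -6.00, -6.55, -6.84 and -2.93. On Card9-/- replicates 1 to 5 it was -0.82, -0.72, -1.35, -0.80 and -1.0. The arrays labelled Card9-/- were thus the brighter ones, with no overlap, and wild type replicate 5 lay far above the other wild type arrays. The probe was well above background on 5 of 5 arrays labelled Card9-/- and on 1 of 5 wild type arrays, so the size of the difference, 4.81 ± 0.52 (SE; limma adjusted p = 0.000199), is uncertain, and it was 2.12 with normexp background correction. The direction is opposite to loss of this stretch of the transcript. The mean was -6.06 in wild type and -1.20 in Card9-/- colon at day 0, and -5.43 and -0.58 at day 7. "Card9-/-" below names the label of the arrays, and every direction between genotypes rests on it.

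Of 19 measured genes of the CARD9 pathway and its lectin receptors, Card9 was the 1 called, and 3 more were higher at an unadjusted p under 0.05, against 2.86% of all genes. They were Vav1, a guanine nucleotide exchange factor upstream of CARD9 (0.39 ± 0.16, adjusted p = 0.429), Malt1, the protease of its complex (0.23 ± 0.10, adjusted p = 0.491), and the mannose receptor gene Mrc1 (0.89 ± 0.40, adjusted p = 0.524). The values of these 3 genes overlapped between the genotypes. Clec7a, which encodes Dectin-1, the kinase gene Syk and Bcl10 differed by 0.29 ± 0.41, 0.25 ± 0.19 and 0.04 ± 0.09, with adjusted p between 0.793 and 0.949.

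Around Card9, 1 of 217 genes within 5 Mb was called at day 12, Card9 itself, and 25 (11.5%) had an unadjusted p under 0.05, against 8.85% of all genes tested. Within 20 Mb, 46 of 430 genes had such a p, and 1 was called. On all of chromosome 2, 182 of 1878 genes (9.69%) had such a p, and 3 were called. The share within 20 Mb lay between those of the 5 Mb window and of the chromosome. Whether the share near Card9 exceeds that of the chromosome was not tested. Dnlz, whose probe lies next to that of Card9 (chr2:26206952-26207309, mm9) and which encodes a mitochondrial chaperone partner, was singled out after its values were seen. Its level was 1.33 to 1.5 on the wild type arrays and 0.73 to 1.19 on the Card9-/- arrays, without overlap, and its difference of -0.43 ± 0.09 did not pass the test (adjusted p = 0.0648).

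**Figure D1:**
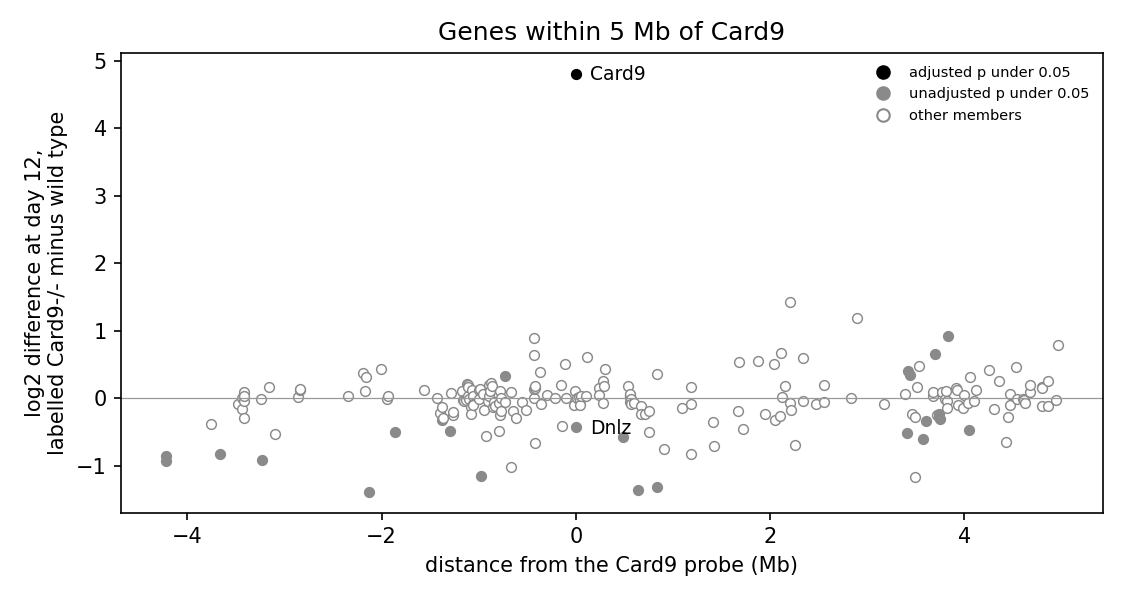
The log2 difference at day 12 (Card9-/- minus wild type, vertical axis) of 217 genes within 5 Mb of Card9 by the distance of their probe from the Card9 probe in Mb (horizontal axis). Black marks an adjusted p under 0.05, grey an unadjusted p under 0.05 and white the other genes. Card9, at 4.81, stands alone above the other genes, which lie between -1.39 and 1.42.

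Over 25496 genes tested, 18 (0.0706%) were called with limma at an adjusted p under 0.05, 5 higher (0.0196%) and 13 lower (0.051%) in Card9-/- colon. The higher genes were Card9 and 4 genes of the circadian clock. Of the 13 lower genes 4 are in the list of interferon-stimulated genes, Ifit1, Mx2, Oas3 and Cmpk2. Others were Oasl1, a relative of the OAS enzymes, the lectin gene Lgals9 and the apolipoprotein L genes Apol9a, Apol9b and Apol7a. Also lower were Oip5, a centromere gene, Zfp473, a zinc finger gene, and a pair of unnamed transcripts. At an unadjusted p under 0.05 there were 2256 genes (8.85%), 728 higher (2.86%) and 1528 lower (5.99%). Values of the 10 arrays did not overlap between genotypes for 986 genes (3.87%), 226 higher (0.886%) and 760 lower (2.98%). The 18 called genes did not overlap, which by itself fixes the same sign within each of the 4 slides. With slide as a block 20 genes were called, 17 of them among the 18. Without Card9-/- replicate 5 only 11 genes were called, and without the 2 arrays with the highest acinar means 12, of which 10 were among the 18.

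The spread in this test comes from all 25 arrays. A fit of the 10 day 12 arrays alone, with their own spread, called 281 genes (1.1%), 40 higher (0.157%) and 241 lower (0.945%), including 17 of the 18. Below, "in the day 12 fit" refers to it.

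**Figure D2:**
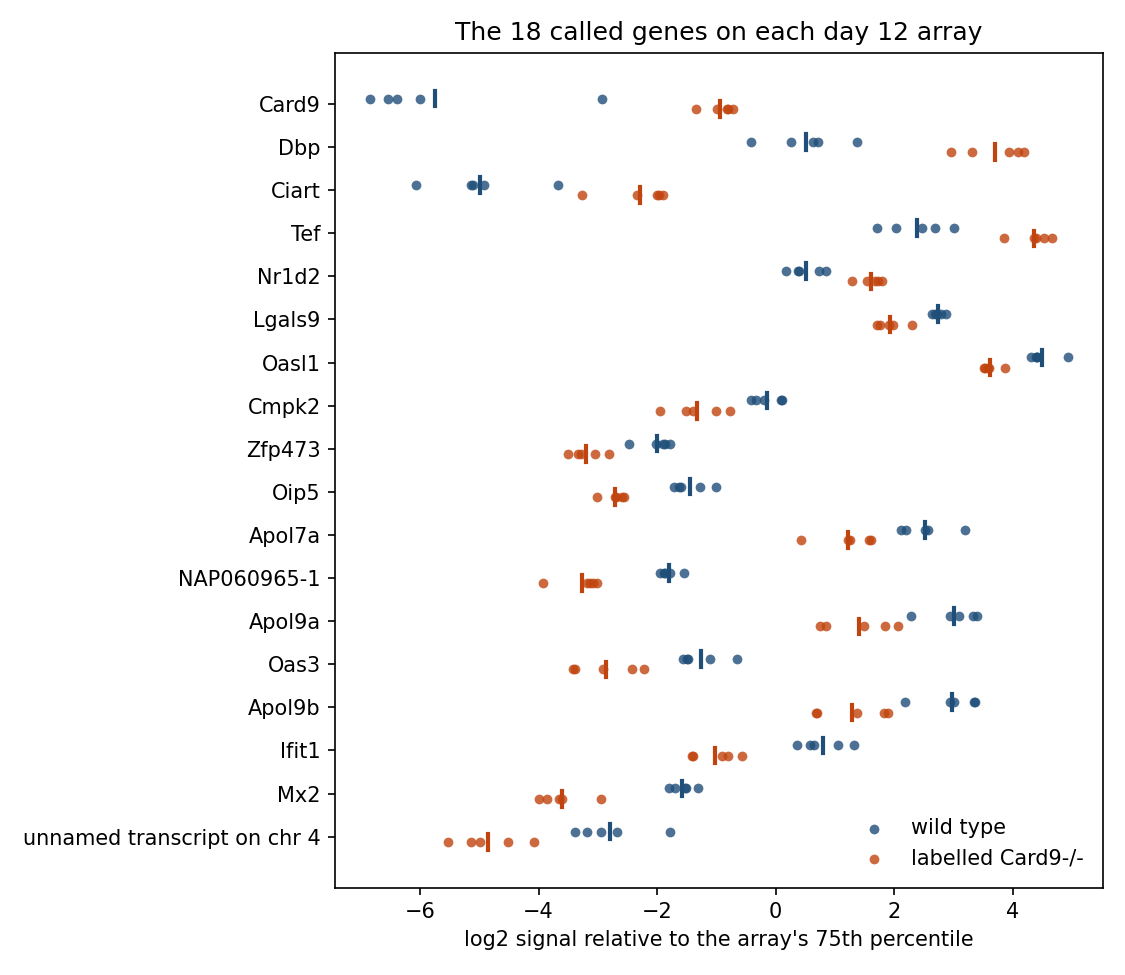
The log2 signal relative to the 75th percentile of the array (horizontal axis) of the 18 called genes on the 5 wild type arrays (blue) and the 5 arrays labelled Card9-/- (red), with a vertical bar at each group's mean. For each gene the groups are separate, and the lone wild type point near that of the Card9-/- arrays in the Card9 line is replicate 5, at -2.93.

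Interferon-stimulated genes were lower in Card9-/- colon after recovery. Of 33 measured genes of this list 4 were called, all lower, against 0.051% of all genes, and 26 were lower at an unadjusted p under 0.05, against 5.99%. The median difference was -1.11, against -0.01 over all genes, and 22 of the 33 did not overlap between genotypes and were lower, against 2.98% of all genes. In the day 12 fit 9 of the 33 were called, all lower, against 0.945%. The list mean, relative to the wild type mean, lay between -0.30 and 0.25 on the wild type arrays and between -1.39 and -0.67 on the Card9-/- arrays.

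Genes of this response often carry an interferon-stimulated response element, a short sequence bound by the transcription factors that interferon activates. It was searched as GAAA, any 2 bases and GAAA again, on both strands, in windows of 300 bases from 250 before to 50 after each annotated start (RefSeq, GRCm38.p6). It was in 16 of 29 windows of the 25 list genes with a window (55.2%), against 3.44% of 32851 windows of all genes. The windows of 3 called genes are shown, Ifit1 and Oas3 from the list and Lgals9 from outside it, because these genes carry the called difference, with the matches in capitals.
Ifit1 promoter, chr19:34640639-34640938, plus strand: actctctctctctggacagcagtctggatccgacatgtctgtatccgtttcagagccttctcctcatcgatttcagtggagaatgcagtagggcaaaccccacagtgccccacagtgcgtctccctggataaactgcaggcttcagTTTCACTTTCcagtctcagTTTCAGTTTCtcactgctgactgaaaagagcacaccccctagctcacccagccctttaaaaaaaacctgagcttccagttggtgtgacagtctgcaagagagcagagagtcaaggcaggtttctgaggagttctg
Oas3 promoter, chr5:120777610-120777909, minus strand: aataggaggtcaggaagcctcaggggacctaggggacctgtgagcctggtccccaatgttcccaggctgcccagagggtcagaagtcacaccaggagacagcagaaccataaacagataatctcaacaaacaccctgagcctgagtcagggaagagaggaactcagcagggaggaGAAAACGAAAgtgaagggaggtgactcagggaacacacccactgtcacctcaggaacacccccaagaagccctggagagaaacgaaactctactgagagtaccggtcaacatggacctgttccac
Lgals9 promoter, chr11:78984875-78985174, minus strand: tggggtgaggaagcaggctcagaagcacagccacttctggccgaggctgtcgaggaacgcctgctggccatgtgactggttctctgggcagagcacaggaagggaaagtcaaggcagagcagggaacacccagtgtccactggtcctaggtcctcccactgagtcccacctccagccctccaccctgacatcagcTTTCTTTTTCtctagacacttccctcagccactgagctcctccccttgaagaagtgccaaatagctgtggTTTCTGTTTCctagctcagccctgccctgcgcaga
Ifit1 and Lgals9 have 2 matches each and Oas3 has 1. Among the other called genes the windows of Apol9a and Apol9b hold the letters, those of Oasl1, Cmpk2 and Apol7a do not, and no window was used for Mx2. A match in letters is not a bound site. The share of windows with the letters is a trait of the listed genes and not a result of the arrays. The same holds for the motif shares of the other lists below.

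Ifit1, whose protein binds foreign RNA caps, had levels of 0.59, 0.65, 1.06, 1.33 and 0.36 on wild type replicates 1 to 5. On Card9-/- replicates 1 to 5 they were -0.90, -1.41, -1.40, -0.56 and -0.81. Each Card9-/- array lay below each wild type array, and the difference was -1.81 ± 0.23 (3.52-fold lower, adjusted p = 0.00187). Mx2, a dynamin-like antiviral GTPase, had levels of -1.80 to -1.32 on the wild type arrays and -4.00 to -2.94 on the Card9-/- arrays, of which 3 of 5 were well above background. Its difference was -2.03 ± 0.29 (adjusted p = 0.00346), but -0.97 with normexp background correction (adjusted p = 0.102), so its size is uncertain. Oas3, which makes the 2-5A signal that activates RNase L, lay at -1.56 to -0.66 in wild type and at -3.42 to -2.22 in Card9-/- colon. The difference was -1.61 ± 0.28 (adjusted p = 0.022). Cmpk2, a mitochondrial nucleotide kinase, was at -0.42 to 0.11 against -1.95 to -0.76. Its difference was -1.17 ± 0.19 (adjusted p = 0.0107), and a further Cmpk2 probe gave -1.29. With these 4 genes the groups were separate, although without wild type replicate 3 only 2 members of the list were called, and also with normexp.

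Oasl1, Lgals9 and the apolipoprotein L genes, which are outside the list, were also lower. Oasl1, which limits IRF7 translation, was at 4.40, 4.42, 4.42, 4.93 and 4.31 on the wild type arrays. It was at 3.61, 3.52, 3.53, 3.59 and 3.87 on the Card9-/- arrays, a difference of -0.87 ± 0.13 (adjusted p = 0.00633). Both groups were tight apart from the highest array of each. Lgals9 encodes galectin-9, a lectin that binds TIM-3 on T cells. It lay at 2.64 to 2.88 in wild type and at 1.71 to 2.31 in Card9-/- colon and differed by -0.81 ± 0.11 (adjusted p = 0.00286). The apolipoprotein L genes Apol9a and Apol9b lie on chromosome 15 and are near-identical copies whose probes cannot be told apart with certainty. Their differences were -1.61 ± 0.25 and -1.68 ± 0.27 (adjusted p = 0.00805 for both). Apol7a, a neighbour in the same cluster, differed by -1.30 ± 0.25 (adjusted p = 0.0476), and its other 2 probes gave -1.04 and -1.0.

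Of the members that did not pass the test, a few are given that were picked after their values were seen. Rsad2 (viperin), Usp18, which dampens the interferon receptor, the ubiquitin-like Isg15 and the transcription factor Irf7 had differences of -1.34 ± 0.27, -1.58 ± 0.34, -1.25 ± 0.32 and -0.82 ± 0.18, with adjusted p between 0.0648 and 0.184. None of the 4 overlapped between the groups, and in the day 12 fit Rsad2 and Usp18 were called (adjusted p = 0.0176 for both). Gbp5, a guanylate-binding protein of inflammasome assembly, went the other way, at -1.30 to -0.78 in wild type and -0.75 to -0.14 in Card9-/- colon (0.40 ± 0.15, adjusted p = 0.363), but at -0.10 when its probes were averaged. Among 12 genes of MHC class I presentation and the immunoproteasome none was called with limma. At an unadjusted p under 0.05, 8 were lower, against 5.99% of all genes, and 12 of 12 lay below 0 (median -0.35). Tap1, the peptide transporter, was at -0.39 to 0.68 against -1.53 to -0.65 and was called in the day 12 fit (-1.29, adjusted p = 0.0422, but 0.243 over all arrays). Psmb9, an immunoproteasome subunit, differed by -1.12 ± 0.34 (adjusted p = 0.241).

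The genotype difference in these genes was tested against that of the other days. In wild type colon Ifit1 averaged -0.63 ± 0.38 (SD, n = 3) at day 0, 0.01 ± 0.51 (n = 5) at day 7 and 0.80 ± 0.39 (n = 5) at day 12. In Card9-/- colon it averaged 0.25 ± 0.11 (n = 3), 0.45 ± 0.24 (n = 4) and -1.02 ± 0.38 (n = 5). The genotype difference at day 12 was lower than that at day 7 by 2.26 on the log2 scale (interaction term of limma, adjusted p = 0.0203) and lower than that at day 0 by 2.70 (adjusted p = 0.0156). For Oasl1 the change from the day 7 difference was -1.29 (adjusted p = 0.0203) and from day 0 -1.27 (adjusted p = 0.0709). These were the only genes called in the interaction tests, 2 of 25496 (0.00784%) against day 7 and 1 of 25495 (0.00392%) against day 0, with 1965 and 1742 at an unadjusted p under 0.05. For Mx2, Oas3, Apol9a, Apol9b, Lgals9 and Rsad2 the change from day 7 lay between -2.34 and -0.86 with adjusted p = 0.0702 for each. Over the list the median genotype difference was 0.24 at day 0 and 0.40 at day 7.

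The days were also compared within each genotype, where from day 0 to day 12 1.73% of all genes were called in wild type colon and 6.94% in Card9-/- colon, and from day 7 to day 12 0.486% and 7.69%. From day 0 to day 12 Ifit1 rose by 1.43 ± 0.27 in wild type colon (adjusted p = 0.00744) and fell by 1.27 in Card9-/- colon (adjusted p = 0.00719). Lgals9 rose in wild type colon (0.93, adjusted p = 0.000326) and had a change of -0.02 in Card9-/- colon (adjusted p = 0.978). Oasl1, Mx2 and Oas3 rose in wild type colon too (0.80, 1.68 and 1.43, adjusted p = 0.00776, 0.0107 and 0.0268). Apol9a and Apol9b fell in Card9-/- colon (-1.37 and -1.45, adjusted p = 0.00747 and 0.00705). The list's median change from day 0 was 1.15 in wild type and -0.25 in Card9-/- colon. These comparisons share their day 12 arrays with the genotype comparison. Of the immune cell lists, none with a called member, the T cell list had a median genotype difference of 0.13, the macrophage list 0.44, the mast cell list 0.69 and the B cell list 1.30, and their part in the result was not tested.

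**Figure D3:**
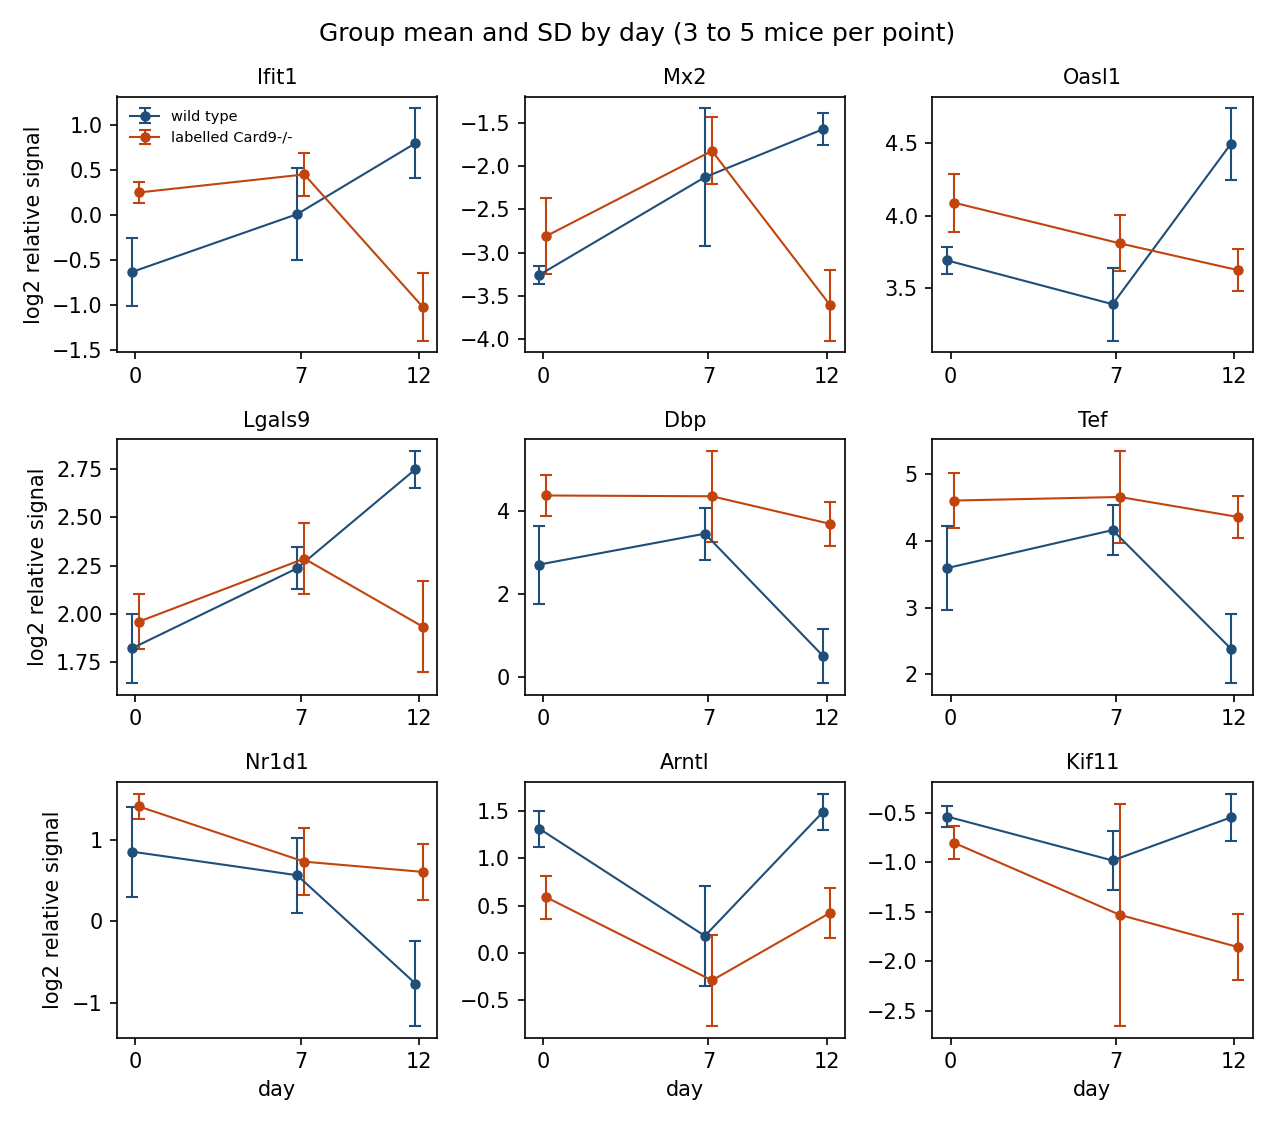
Mean and SD of the log2 relative signal (vertical axis) of 9 genes in wild type (blue) and Card9-/- (red) colon at days 0, 7 and 12 (horizontal axis), with 3 to 5 mice per point. Ifit1 and Mx2 are from the interferon list, and Oasl1 and Lgals9 from outside it. Their means are higher in wild type at day 12 and higher in Card9-/- colon at days 0 and 7. The wild type mean of Dbp drops from 3.46 at day 7 to 0.51 at day 12 and the Card9-/- mean from 4.37 to 3.70.

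Apart from Card9, the genes called higher in Card9-/- colon were clock genes. Of 20 measured clock genes 4 were called, all higher, against 0.0196% of all genes. A further 4 were higher and 3 lower at an unadjusted p under 0.05, against 2.86% and 5.99% of all genes. The list median was 0.41. Dbp, Tef, Ciart, Nr1d2 and Nr1d1 are outputs and repressors that ARNTL and CLOCK activate. Arntl and Npas2, the activator side of the loop, and Nfil3, a repressor that opposes DBP, lay on the other side of 0. Bhlhe41, Cry1, Wee1 and Clock lay there too (-1.02, -0.41, -0.33 and -0.08), each with an unadjusted p over 0.05 in limma. Of the 20 genes 13 lay above 0 and 7 below, so the list does not split cleanly into activators and their targets. In the day 12 fit 6 were called, 5 higher and 1 lower, the latter Arntl, against 0.157% of all genes higher and 0.945% lower.

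Dbp, a PAR bZIP activator, had levels of 0.63, 1.37, -0.42, 0.71 and 0.26 on wild type replicates 1 to 5. On Card9-/- replicates 1 to 5 they were 4.20, 4.09, 2.95, 3.32 and 3.94. The groups were separated by a wide gap, and the difference was 3.19 ± 0.45 (9.13-fold, adjusted p = 0.00346), with 2.78 from a further probe. Tef, a PAR bZIP relative of Dbp, was at 1.71 to 3.02 in wild type and 3.85 to 4.66 in Card9-/- colon (1.97 ± 0.30, adjusted p = 0.00633). Ciart, a repressor of ARNTL and CLOCK, was at -6.08 to -3.68 against -3.27 to -1.91. It was well above background on 1 of 5 wild type arrays, so its difference of 2.69 ± 0.44 (adjusted p = 0.0107) is uncertain in size. Nr1d2 (REV-ERB beta), which represses Arntl, was at 0.18 to 0.85 against 1.29 to 1.79 (1.10 ± 0.18, adjusted p = 0.0119).

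Nr1d1 (REV-ERB alpha) was at -1.33 to -0.20 in wild type and 0.23 to 0.97 in Card9-/- colon, without overlap, and missed the threshold (1.37 ± 0.27, adjusted p = 0.0603; adjusted p = 0.0441 in the day 12 fit). Arntl, at 1.77, 1.25, 1.52, 1.54 and 1.39 on the wild type arrays and 0.27, 0.88, 0.38, 0.21 and 0.39 on the Card9-/- arrays, had a difference of -1.07 ± 0.22 (adjusted p = 0.0844; adjusted p = 0.0176 in the day 12 fit). Nfil3 was held between 1.62 and 1.66 on the wild type arrays and spread from 0.05 to 1.31 on the others (-1.0 ± 0.34, adjusted p = 0.31). The period genes Per2 and Per1 gave 1.07 ± 0.28 and 0.66 ± 0.24, Bhlhe40 0.43 ± 0.13 and Npas2 -0.88 ± 0.38, with adjusted p between 0.184 and 0.5.

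The canonical E-box CACGTG, which ARNTL and CLOCK bind and which reads the same on both strands, was in 6 of 21 windows of 16 clock genes (28.6%), against 7.15% of all windows. Of the called clock genes, windows of Ciart and Tef hold it and are shown, with the E-box in capitals, and those of Dbp and Nr1d2 do not.
Ciart promoter, chr3:95882179-95882478, minus strand: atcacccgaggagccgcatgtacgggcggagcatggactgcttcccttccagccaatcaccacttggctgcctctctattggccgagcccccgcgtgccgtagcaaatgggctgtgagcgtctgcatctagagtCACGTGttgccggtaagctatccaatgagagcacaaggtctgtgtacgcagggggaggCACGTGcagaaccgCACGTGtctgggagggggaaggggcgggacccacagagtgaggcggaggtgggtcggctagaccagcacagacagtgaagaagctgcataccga
Tef promoter, chr15:81802423-81802722, plus strand: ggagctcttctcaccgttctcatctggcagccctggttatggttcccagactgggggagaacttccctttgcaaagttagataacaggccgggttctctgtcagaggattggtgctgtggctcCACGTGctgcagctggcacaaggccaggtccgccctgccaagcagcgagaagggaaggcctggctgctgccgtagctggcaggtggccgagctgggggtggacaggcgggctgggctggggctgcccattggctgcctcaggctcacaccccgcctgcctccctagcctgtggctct
Ciart has 3 E-boxes in this window and Tef has 1.

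At day 0 Dbp averaged 2.72 in wild type and 4.39 in Card9-/- colon, and at day 7 it averaged 3.46 and 4.37. None of the 4 called clock genes was called in the interaction tests (adjusted p for Dbp = 0.424 against day 7 and 0.732 against day 0). From day 0 to day 12, Dbp, Nr1d2 and Nr1d1 fell in wild type colon (-2.21, -1.07 and -1.62, adjusted p = 0.031, 0.0105 and 0.00802), whereas the same changes in Card9-/- colon were -0.68, -0.48 and -0.80 (adjusted p = 0.577, 0.215 and 0.135). Clock genes swing with the hour of the day. The labels give no hour of sampling for either genotype, and its part in the result was not tested. Glucocorticoids also follow the time of day. Of 15 genes of the glucocorticoid response none was called. The list median was 0.24, with 11 genes above 0 and 4 below. Zbtb16, Fkbp5 and Per1 were higher at an unadjusted p under 0.05, against 2.86% of all genes (1.70 ± 0.37, 0.93 ± 0.22 and 0.66 ± 0.24, adjusted p = 0.105, 0.129 and 0.356). Per1 is also in the clock list. Without Card9-/- replicate 5 only 2 clock genes were called, and without the 2 arrays with the highest acinar means 1.

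Cell division genes were lower as groups in Card9-/- colon, with calls in the day 12 fit. Of 25 mitosis genes 24 were lower at an unadjusted p under 0.05, against 5.99% of all genes, 23 did not overlap between genotypes, against 2.98%, and the median difference was -1.10. Of 26 DNA replication genes 25 were lower at such a p, 22 did not overlap and the median was -0.79. None of these genes passed the adjusted test of the 25-array fit with limma. In the day 12 fit 23 mitosis genes and 15 replication genes were called, all lower, against 0.945% of all genes. The list means, relative to wild type, lay at -0.31 to 0.14 for mitosis and -0.28 to 0.27 for replication on the wild type arrays. On the Card9-/- arrays they were -1.57 to -0.84 and -1.03 to -0.45, and for neither list did the genotypes overlap.

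Kif11, a motor that pushes the spindle poles apart, was at -0.86, -0.70, -0.23, -0.54 and -0.42 on wild type replicates 1 to 5. It was at -1.65, -2.0, -1.91, -1.42 and -2.31 on Card9-/- replicates 1 to 5, and no array crossed over. The difference was -1.31 ± 0.31, with adjusted p = 0.139 and, in the day 12 fit, adjusted p = 0.0176. Bub1b, a spindle checkpoint kinase, differed by -1.09 ± 0.28 (adjusted p = 0.184; adjusted p = 0.0176 in the day 12 fit). The proliferation marker Mki67 was at 3.90 to 4.40 in wild type and 2.84 to 3.52 in Card9-/- colon (-0.99 ± 0.32), and Top2a, which untangles DNA, at 1.08 to 1.62 against 0.07 to 0.76 (-1.11 ± 0.36). Foxm1, a transcription factor of mitotic genes, was at -0.20 to 0.28 against -1.66 to -0.85, and Kif18b, a mitotic motor, at -2.04 to -1.72 against -3.72 to -3.14. These 4, picked after their values were seen, were called in the day 12 fit (adjusted p = 0.0185, 0.0176, 0.0176 and 0.00867). Cenpf, which was above background on 4 of the 10 arrays, was the mitosis gene without such a p.

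Among replication genes, Lig1, the ligase that joins Okazaki fragments, was at 3.42 to 3.65 in wild type and 2.63 to 3.12 in Card9-/- colon (-0.62 ± 0.17). Fen1, the nuclease that trims them, was at 3.16 to 3.77 against 2.28 to 2.89 (-0.84 ± 0.23). Their adjusted p was 0.184 and 0.185, and in the day 12 fit 0.0386 and 0.0284. Tyms, thymidylate synthase, was the exception of the list, at -2.80 to -2.39 against -2.56 to -2.30 (0.18 ± 0.12). The called gene Oip5, which loads the centromere histone and was in neither list, belongs to the same function. It was at -1.71, -1.63, -1.61, -1.28 and -1.01 in wild type and at -2.71, -2.60, -2.69, -2.57 and -3.01 in Card9-/- colon, apart on each array, with a difference of -1.27 ± 0.21 (adjusted p = 0.0119).

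Promoters of mitotic genes often carry a cell cycle homology region near the start and CCAAT boxes, and those of replication genes E2F sites. The letters TTTGAA, on both strands, were in 17 of 22 windows of the mitosis list (77.3%), against 17.9% of all windows, and CCAAT in 19 of them (86.4%), against 37.4%. The E2F letters (TTCCCGC or its variants with TTGGCGC, with TTCGCGC and with TTGCCGC) were in 18 of 27 windows of the replication list (66.7%), against 9.57%. Windows of the 2 named mitosis genes and of Fen1 are shown, with TTTGAA in the first pair and the E2F letters in the last in capitals on either strand.
Kif11 promoter, chr19:37376132-37376431, plus strand: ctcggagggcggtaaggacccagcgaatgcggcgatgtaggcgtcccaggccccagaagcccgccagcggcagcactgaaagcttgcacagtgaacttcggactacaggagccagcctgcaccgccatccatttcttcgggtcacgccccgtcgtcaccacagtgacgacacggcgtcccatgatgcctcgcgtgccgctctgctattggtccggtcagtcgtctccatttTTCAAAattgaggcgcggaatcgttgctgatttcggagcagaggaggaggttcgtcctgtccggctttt
Bub1b promoter, chr2:118597961-118598260, plus strand: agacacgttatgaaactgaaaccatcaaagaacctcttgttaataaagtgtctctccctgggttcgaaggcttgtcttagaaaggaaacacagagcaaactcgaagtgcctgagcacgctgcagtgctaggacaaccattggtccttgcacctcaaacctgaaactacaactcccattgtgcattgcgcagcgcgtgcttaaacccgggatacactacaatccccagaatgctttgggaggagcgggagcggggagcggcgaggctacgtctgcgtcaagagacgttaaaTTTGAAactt
Fen1 promoter, chr19:10203872-10204171, minus strand: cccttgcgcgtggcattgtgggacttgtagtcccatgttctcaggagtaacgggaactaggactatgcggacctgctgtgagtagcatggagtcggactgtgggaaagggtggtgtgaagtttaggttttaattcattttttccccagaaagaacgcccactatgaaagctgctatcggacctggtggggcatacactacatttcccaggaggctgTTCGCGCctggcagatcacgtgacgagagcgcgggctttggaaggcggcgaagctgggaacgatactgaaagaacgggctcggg
Each has 1 match, and none says that a factor was bound.

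The mitosis list had median genotype differences of -0.14 at day 0 and -0.41 at day 7, and the replication list -0.45 and 0.13. From day 0 to day 12 the mitosis median was 0.12 in wild type and -0.88 in Card9-/- colon, with the day 12 arrays shared between these comparisons. No mitosis or replication gene was called in the interaction tests. Of the lists of epithelial cell types, none with a called member, the tuft cell list had a median of -0.53 with 9 of 14 genes below 0, and the colonocyte transport list 0.28 with 6 of 25 higher at an unadjusted p under 0.05. Among all genes 2.86% were higher and 5.99% lower at such a p. The crypt stem cell list had a median of -0.02 with 2 of 18 genes lower and 1 higher at an unadjusted p under 0.05, and the goblet cell list -0.0012 with 5 of 19 lower. Among the latter were the membrane mucin gene Muc4 (-0.74 ± 0.19, adjusted p = 0.184) and the tryptase gene Tpsg1 (-0.33 ± 0.13, adjusted p = 0.428). Whether the share of epithelium differed between the samples was not tested.

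**Figure D4:**
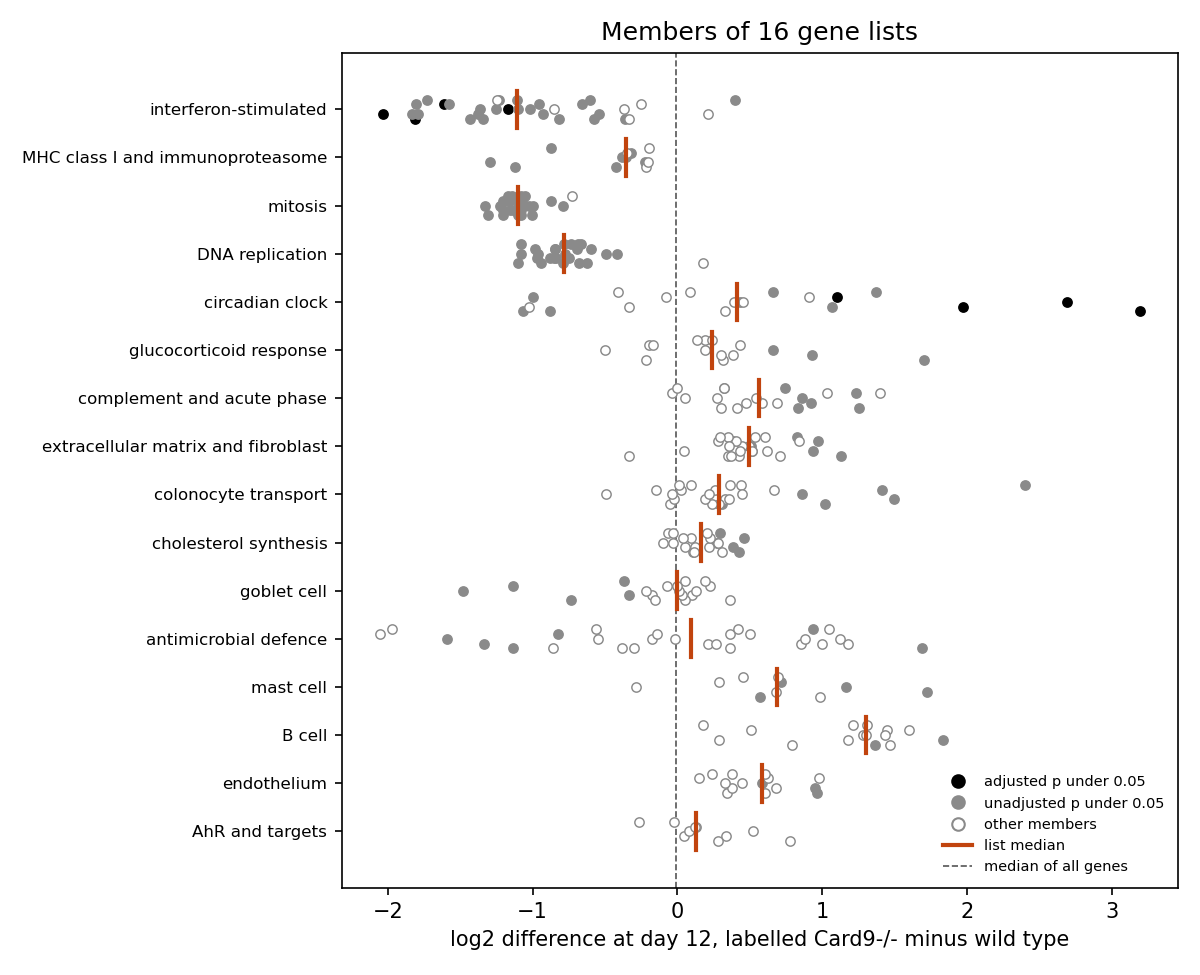
The log2 difference at day 12 (Card9-/- minus wild type, horizontal axis) of each measured member of 16 gene lists, with black for an adjusted p under 0.05, grey for an unadjusted p under 0.05 and white for the others. The red bars are list medians, at -1.11 for interferon-stimulated, -1.10 for mitosis and -0.79 for DNA replication genes, and the dashed line is the median of all genes, at -0.01.

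Most measured genes of the complement, extracellular matrix and endothelium lists lay above 0 in Card9-/- colon (18 of 20, 26 of 27 and 15 of 15), with no member called with limma over all arrays. Of 20 complement and acute phase genes 6 were higher at an unadjusted p under 0.05, against 2.86% of all genes, with a median of 0.56. C3, the central complement protein, was at 4.17 to 5.40 in wild type and 5.54 to 6.28 in Card9-/- colon (1.25 ± 0.29, adjusted p = 0.123; adjusted p = 0.0445 in the day 12 fit). Of 27 extracellular matrix and fibroblast genes 5 had such a p. Dcn, the collagen-binding proteoglycan decorin, was at 3.84 to 4.88 against 5.15 to 5.72 (1.13 ± 0.36, adjusted p = 0.26, and 0.0306 in the day 12 fit). Tnc, a matrix protein of wounds, differed by 0.94 ± 0.40, and Sfrp2, a Wnt modulator of fibroblasts picked after its values were seen, by 1.95 ± 0.55 (adjusted p = 0.198; adjusted p = 0.0245 in the day 12 fit). Of the endothelial genes, Tek and Emcn differed by 0.96 ± 0.32 and 0.95 ± 0.40.

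No immune cell list had a called member with limma over all arrays. All 15 B cell genes lay above 0, with a median of 1.30, yet 2 had an unadjusted p under 0.05, against 2.86% of all genes that were higher at such a p. The list mean was 0.89, 1.01, -0.53, -1.43 and 0.05 on the wild type arrays and 0.19, 1.58, 1.57, 1.5 and 0.88 on the Card9-/- arrays, so the groups overlapped. The mast cell list mean did not overlap, at -0.13 to 0.19 in wild type and 0.35 to 1.15 in Card9-/- colon, and of its 10 genes 4 were higher at such a p, among them the chymases Cma1 (1.72 ± 0.61, adjusted p = 0.332) and Cma2 (0.57 ± 0.19, adjusted p = 0.289). Of 19 neutrophil genes and 19 macrophage genes 2 each were higher at such a p, and of 20 T cell genes 1.

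**Figure D5:**
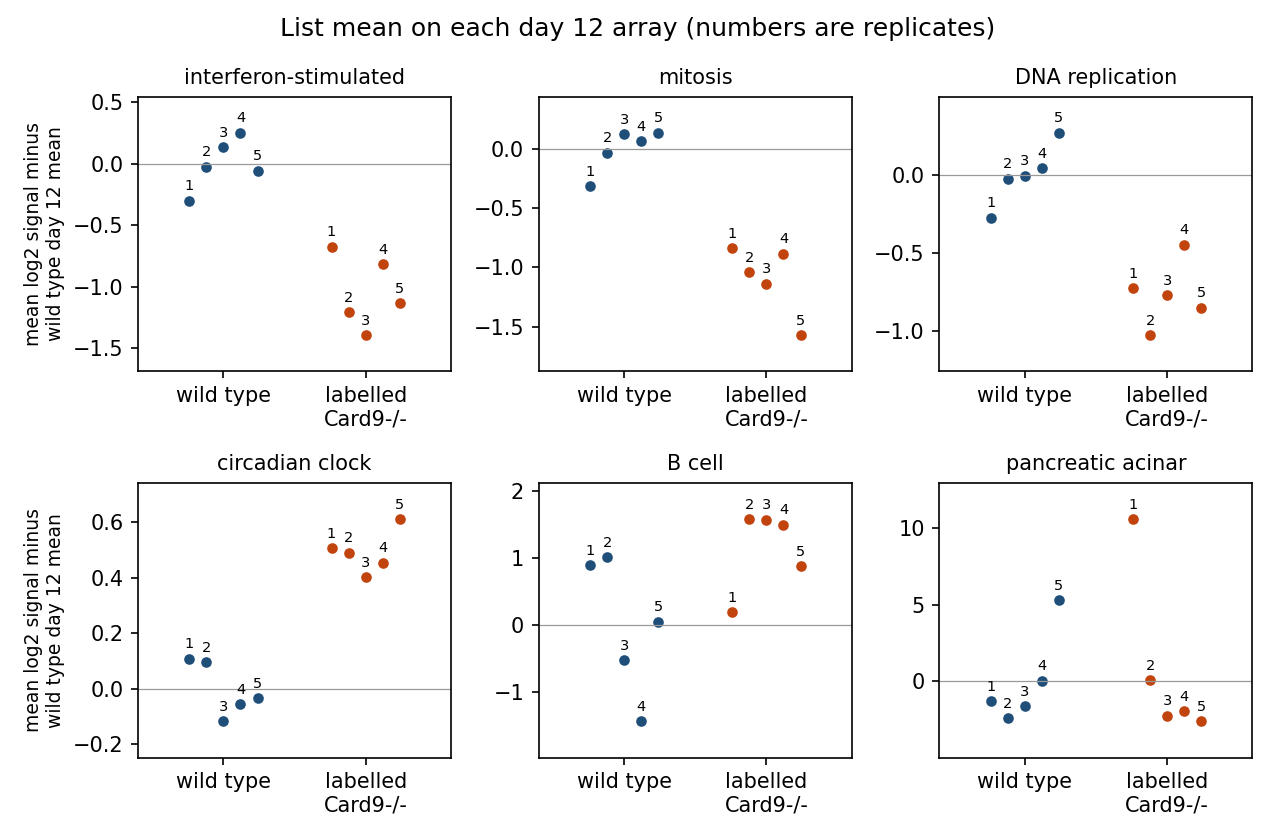
The mean of 6 gene lists on each day 12 array relative to the wild type day 12 mean (vertical axis, log2), with wild type in blue, Card9-/- in red and the replicate numbers beside the points. The genotypes are separate for interferon-stimulated, mitosis, DNA replication and clock genes and overlap for B cell and pancreatic acinar genes, the latter with Card9-/- replicate 1 at 10.6.

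In the colonocyte transport list 20 of 25 genes lay above 0, and in the cholesterol list 16 of 20, with no member called with limma over all arrays. Of 25 colonocyte transport genes 6 were higher at an unadjusted p under 0.05, against 2.86% of all genes. Scnn1b, a subunit of the epithelial sodium channel, was at -1.02 to -0.58 in wild type and -0.45 to 0.64 in Card9-/- colon (1.02 ± 0.26, adjusted p = 0.184; adjusted p = 0.0392 in the day 12 fit), and the phosphate transporter gene Slc20a1 differed by 1.49 ± 0.53 (adjusted p = 0.333). Of 20 cholesterol synthesis and uptake genes 5 were higher at such a p, including Msmo1, a sterol oxidase, without overlap between genotypes (0.43 ± 0.14, adjusted p = 0.3). Of 28 antimicrobial genes 2 were higher and 4 lower at such a p, against 2.86% and 5.99% of all genes. Slpi, a protease inhibitor of mucosal surfaces, was at 2.55 to 4.18 against 3.69 to 6.18 (1.69 ± 0.43, adjusted p = 0.184). The angiogenin ribonucleases Ang, Ang2 and Ang4, near-identical copies in part, differed by -0.82 ± 0.31, -1.34 ± 0.42 and -1.59 ± 0.51, and the goblet cell protein gene Retnlb by -1.13 ± 0.52, with adjusted p between 0.258 and 0.531.

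On the question in the study's title, no gene of the AhR list was called with limma and 0 of 10 had an unadjusted p under 0.05. Cyp1a1, the classic AhR target, was well above background on 1 of the 10 arrays, with a difference of 0.78 ± 0.51 (95% interval -0.29 to 1.85, adjusted p = 0.735). Il22, a cytokine that AhR promotes, was above background on 2 of the 10 arrays, with a difference of 0.27 ± 0.76 (95% interval -1.32 to 1.86, adjusted p = 0.959). Such intervals leave room for differences of several fold. Of 15 tryptophan metabolism genes 2 were lower and 2 higher at an unadjusted p under 0.05, against 5.99% and 2.86% of all genes. Ido1, which opens the kynurenine pathway, was at -1.03, 0.82, 0.20, 1.26 and 1.21 on the wild type arrays and -1.24, -1.84, -2.83, -1.06 and -2.67 on the Card9-/- arrays. The groups did not overlap, with wild type replicate 1 close to the Card9-/- arrays, and the difference of -2.42 ± 0.69 had adjusted p = 0.204. From day 0 to day 12 Ido1 rose by 4.58 ± 0.80 in wild type colon (adjusted p = 0.00379), and its change in Card9-/- colon was -0.36 (adjusted p = 0.926). Its relative Ido2 was not well above background on any Card9-/- array and on 3 of 5 wild type arrays. Its difference of -1.56 ± 0.59 is therefore uncertain in size. The adjusted p was 0.387, and 0.0392 in the day 12 fit. Kyat1, which turns kynurenine into kynurenic acid, and Maob, an amine oxidase, differed by 0.93 ± 0.34 and 0.70 ± 0.32 (adjusted p = 0.356 and 0.542). Kyat1 lies within 5 Mb of Card9 and is among the genes of that window with an unadjusted p under 0.05.

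The last called genes belong to none of these groups. Zfp473 was at -2.48 to -1.78 in wild type and -3.50 to -2.81 in Card9-/- colon (-1.19 ± 0.22, adjusted p = 0.0321), and its other probe gave -1.15. The probe listed as NAP060965-1, with no gene name here, lies at chr2:149158832-149158891 (mm9, minus strand), and another unnamed one at chr4:128727517-128727576 (mm9, minus strand). Their probe sequences are shown since no name identifies them.
NAP060965-1 probe: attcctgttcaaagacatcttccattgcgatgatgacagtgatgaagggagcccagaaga
Chromosome 4 probe: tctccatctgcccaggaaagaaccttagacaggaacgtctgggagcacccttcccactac
NAP060965-1 was at -1.95 to -1.55 in wild type and -3.92 to -3.02 in Card9-/- colon (-1.46 ± 0.21, adjusted p = 0.00429). It was also called lower at day 7 (-1.78, adjusted p = 0.00106), and the day 0 difference was -1.01 (adjusted p = 0.638). Together with Card9 it makes up the 2 of the 18 genes that were called with the same sign at day 7. The chromosome 4 probe was at -3.39 to -1.79 against -5.53 to -4.08, was well above background on 1 of 5 Card9-/- arrays, and differed by -2.05 ± 0.39 (adjusted p = 0.0476). A further probe for the same chromosome 4 transcript gave -0.09.

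Across the days, 140 genes (0.549%) were called between genotypes at day 7 and 1 of 25495 (0.00392%), Card9, at day 0. Of the 18 genes of day 12, 9 had the same sign at day 7 and 8 at day 0. The day 0 and day 7 mice are other animals than those of day 12, and day 0 has 3 per genotype.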

How the data were processed

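RNA from 1 colon per array was hybridised to 1-colour Agilent arrays. The deposited values are spot intensity after background subtraction, from Agilent Feature Extraction 10.7.3.1, per the file headers. The series value table holds the authors' log2 values and served as an alternative. Each intensity was scaled to the 75th percentile of its array and taken as log2. Of 55681 probes, 36352 were well above background on at least 3 arrays and were kept, and 1 probe was taken for each of the 25496 genes.

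A limma 3.58.1 model (R 4.3.3, data.table version 1.17.8) with 6 groups was fitted to all 25 arrays, with Benjamini-Hochberg adjustment over all genes. Every adjusted p given is from limma, a call is an adjusted p under 0.05, and "day 12 fit" is the same model on 10 arrays. The procedure was tested on simulated data. Figures were drawn with matplotlib 3.10.9 in Python 3.11.15.

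Named were Card9, the called genes with a symbol and the largest differences, members of the lists on CARD9, AhR, tryptophan, IL-22, defence and clock, up to 4 called members of a list, and otherwise the 2 members with the smallest p. Genes named beyond that rule are said to be picked after their values were seen; the unnamed called probes are added so that each called gene is given. The comparison, the lists and the tests were chosen with earlier results of these data known. Alternatives covered background correction, scaling, the filter on dim probes, the handling of several probes, slide or replicate as a block, left-out arrays, colon position and array weights. The labels name separate mice, so p-values measure the spread between mice. Some results are not reported here.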

Additional observations from a re-analysis of the deposited data

Results flagged for a closer look

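Among 142 gene groups of 5 arrays examined, a lone array stood far from the other 4 in the following, where chance alone gives about 1 in 20. Card9 was at -2.93 on wild type replicate 5, against -6.84 to -6.00 on the other wild type arrays. The probe NAP060965-1 was at -3.92 on Card9-/- replicate 1, against -3.18 to -3.02. Oasl1 was at 3.87 on Card9-/- replicate 5, against 3.52 to 3.61, and at 4.93 on wild type replicate 4, against 4.31 to 4.42. Arntl was at 0.88 on Card9-/- replicate 2, against 0.21 to 0.39. Gbp5 was at -1.30 on wild type replicate 5, against -0.88 to -0.78. Tnc was at -2.17 on wild type replicate 3, against -3.16 to -2.92. Tek was at -2.49 on Card9-/- replicate 5, against -3.60 to -3.37, and at -5.47 on wild type replicate 1, against -4.17 to -3.80. Il22 was at -2.94 on Card9-/- replicate 3, against -5.38 to -4.85.

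The genotype difference at day 12 differed from that of another day, by the interaction term of limma, for the antiviral genes Ifit1 and Oasl1. For Ifit1 the change of the genotype difference was -2.26 against day 7 (adjusted p = 0.0203) and -2.70 against day 0 (adjusted p = 0.0156). For Oasl1 it was -1.29 against day 7 (adjusted p = 0.0203).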

How the results depend on the processing

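The 18 called genes kept their direction under each alternative in which they had a value. In the authors' value table and with a filter of 13 arrays 17 of them had one. Because their groups did not overlap, leaving out or weighting arrays, or fitting the day 12 arrays alone, could not turn a sign. The calls themselves were not equally steady. Zfp473 and Apol7a each lost theirs in 15 alternatives and kept it in 8. The chromosome 4 probe lost its call in 15 and kept it in 7, Oas3 in 10 and 13, and Oip5 in 7 and 16. The other called genes lost theirs in at most 5 alternatives. The count of called genes was 10 with normexp background correction, 281 with the day 12 arrays alone and 1180 with array weights. Leaving out 1 array at a time gave 11 to 22 calls. With the replicate number as a block 3 genes were called, 2 of them among the 18. The correlation of deviations between arrays of the same number was 0.03, 0.09, -0.16, 0.26 and -0.40. The labels do not say whether the numbers pair mice, and so few correlations cannot decide it. Signs turned for Gbp5 with the mean of its probes (-0.10), for Cenpf with normexp (0.011) and for Il22 without Card9-/- replicate 3 (-0.17) or without wild type replicate 3 (-0.10), its range over left-out arrays being -0.17 to 0.79. The cause was not tested. Signal over background limits Card9, Ciart, Mx2 and the chromosome 4 probe, each near background in 1 genotype, and Il22 and Cyp1a1 in both.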

Other observations

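Further gene lists held no gene called with limma over all arrays. Of 10 genes of the IL-6 family, 3 were higher in Card9-/- colon at an unadjusted p under 0.05, against 2.86% of all genes, and the list median was 0.51. They were receptor genes, Il6ra (0.92 ± 0.25, adjusted p = 0.198), Lifr (0.73 ± 0.28, adjusted p = 0.411) and Il11ra1 (0.41 ± 0.19, adjusted p = 0.552). Of 14 genes of tuft cells, the chemosensory cells of the epithelium, 9 lay below 0, with a median of -0.53. Avil, which encodes the actin-binding protein advillin, had a difference of -0.68 ± 0.18 without overlap (adjusted p = 0.184). Chat, which makes acetylcholine, lay on the other side of 0, also without overlap (0.56 ± 0.21, adjusted p = 0.398). Of 18 genes of retinoid metabolism 3 were higher and 1 lower at such a p, against 2.86% and 5.99% of all genes. The carrier gene Rbp4 differed by -0.55 ± 0.16 (adjusted p = 0.212) and Aldh1a3, which makes retinoic acid, by 1.25 ± 0.46 (adjusted p = 0.363). These genes were picked after their values were seen.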
